A study of Mus musculus with 38 samples.

Results

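The members are 10 transcription factor genes of the naive pluripotency network, Klf2, Klf4, Klf5, Esrrb, Nr5a2, Nr0b1, Zfp42, Tfcp2l1, Tbx3 and Prdm14, taken by name from 23475 genes. They were followed in 25 bulk RNA-seq libraries, in 9 plates of single cells profiled by SCRB-seq (a 3' method that counts unique molecular identifiers, UMIs) and in 4 sets of single cells profiled by SMART-seq2 (a full-length method whose values are RPKM, read numbers scaled for transcript length and sequencing depth). E14 mouse embryonic stem cells (mESCs) were kept in 2i/L, that is 1 µM PD0325901 (a MEK inhibitor), 3 µM CHIR99021 (a GSK3 inhibitor) and 1000 U/ml LIF, and were then moved to N2B27 medium with 0.25 µM retinoic acid (RA) and without the inhibitors and LIF. Bulk RNA came from mESCs (2 libraries), from unsorted cells at 6, 12, 24, 36, 48, 60, 72, 84 and 96 h of RA (1 library each), and from 96 h cells sorted as ectoderm-like (CD24+/PDGFRA-, 2 libraries) or XEN-like (PDGFRA+/CD24-, 2 libraries), where XEN stands for extraembryonic endoderm. Single libraries came from 4 CD24 quartiles of PDGFRA- cells at 48 h, from 3 CD24 terciles of PDGFRA- cells and 1 PDGFRA+/CD24- sort at 72 h, from an ectoderm-like culture at passage 5 and from XEN-like aggregates cultured for 3 weeks, both in N2B27 with 20 ng/ml EGF and 10 ng/ml FGF2. SCRB-seq plates were taken at 0, 6, 12, 24, 36, 48, 60, 72 and 96 h and SMART-seq2 cells at 0, 12, 24 and 48 h.

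Naive mESCs hold their identity through a web of transcription factors around Pou5f1, Sox2 and Nanog. LIF acts through Stat3 on Klf4 and Tfcp2l1 and also feeds Tbx3. GSK3 inhibition relieves repression of Esrrb by Tcf7l1, and MEK inhibition blocks the differentiation signal of Fgf4 and Erk. Cells leave this state when the inhibitors and LIF are withdrawn, and RA, which acts through nuclear receptors, drives them towards neural or endodermal fates.

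The promoters of 4 members are shown because these members stand for the kinds of time course seen. Klf2 and Klf4 were among the earliest to be low, Nr0b1 was first higher and then lower, and Zfp42 was among the last to be low in bulk. Each sequence is the sense strand from 250 to 31 bases before the RefSeq transcript start on GRCm38.p6. The positions are chr8:72318812-72319031 (plus strand), chr4:55532506-55532725 (minus strand), chrX:86191525-86191744 (plus strand) and chr8:43307040-43307259 (minus strand). Capitals mark matches on either strand to the GC box GGGCGG, the Klf-type letters GGGTGTG, the nuclear receptor half-site AGGTCA and the octamer ATGCAAAT.
Klf2: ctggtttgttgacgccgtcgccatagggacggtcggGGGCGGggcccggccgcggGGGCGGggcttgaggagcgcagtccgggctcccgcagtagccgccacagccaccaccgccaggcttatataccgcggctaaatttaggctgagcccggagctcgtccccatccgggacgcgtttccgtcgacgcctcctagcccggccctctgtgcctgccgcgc
Klf4: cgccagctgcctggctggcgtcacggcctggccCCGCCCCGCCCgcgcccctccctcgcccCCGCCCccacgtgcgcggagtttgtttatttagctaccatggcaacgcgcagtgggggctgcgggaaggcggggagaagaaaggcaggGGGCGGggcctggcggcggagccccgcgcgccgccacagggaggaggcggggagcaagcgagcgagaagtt
Nr0b1: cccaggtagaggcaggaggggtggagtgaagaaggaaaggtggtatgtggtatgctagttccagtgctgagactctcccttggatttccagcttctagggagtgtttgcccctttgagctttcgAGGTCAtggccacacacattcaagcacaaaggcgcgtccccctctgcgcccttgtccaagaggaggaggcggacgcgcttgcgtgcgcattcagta
Zfp42: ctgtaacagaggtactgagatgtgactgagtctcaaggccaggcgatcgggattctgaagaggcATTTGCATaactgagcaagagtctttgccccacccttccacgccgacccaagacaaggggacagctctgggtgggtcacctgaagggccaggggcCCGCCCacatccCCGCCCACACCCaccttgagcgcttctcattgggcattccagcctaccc

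RefSeq promoters were matched for 7 of the 10 members (all but Klf5, Prdm14 and Tbx3). The GC box was found in Klf2, Klf4 and Zfp42 and in 28.5% of the 32851 promoter windows of this length. In Klf4 a pair of GC boxes share a base, and in Zfp42 a GC box shares its last base with the Klf-type letters. The Klf-type letters stood in Zfp42 and Esrrb and in 6.12% of all windows, the half-site in Nr0b1 and Nr5a2 and in 12.5%, and the octamer in Zfp42 and in 1.49%. The spaced Stat-type letters TTCNNNGAA were found in Esrrb and in 6.27% of all windows. No member window held the Esrrb/Nr5a2 letters TCAAGGTCA (0.365% of all windows), the RA receptor direct repeat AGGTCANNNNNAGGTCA (0.00913%) or the Tcf letters CTTTGAT (2.91%). These matches are descriptions of letters and say nothing on binding.

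On GRCm38 (GENCODE M21) the gene bodies lie at chr8:72319033-72321656 (Klf2), chr4:55527143-55532466 (Klf4), chr14:99298691-99315036 (Klf5), chr12:86361117-86521628 (Esrrb), chr1:136842571-136960448 (Nr5a2), chrX:86191764-86195947 (Nr0b1), chr8:43295063-43306980 (Zfp42), chr1:118627945-118685168 (Tfcp2l1), chr5:119670669-119684724 (Tbx3) and chr1:13113457-13127163 (Prdm14). Tbx3 has the antisense gene Tbx3os1 over it and Tfcp2l1 overlaps 3 small RNA or pseudogene entries. Whether counting used strand is not given in the sources used here, so reads of Tbx3 and Tbx3os1 may not be told apart. Zfp42 has a processed pseudogene, Zfp42-ps1, on chromosome 15, with which it could share reads.

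Bulk libraries held 1063809 to 2459424 UMIs with a median of 1665335. Bulk levels are given as CPM, UMIs per 1000000 UMIs of the library, with exact Poisson 95% intervals in brackets where a single library is described. These intervals and all those below cover counting error only. The pair of mESC libraries, which the study's methods call biological replicates, differed by more than counting error for several members. Klf2 was at 224 and 444 CPM, Tfcp2l1 at 137 and 239, Klf5 at 17.06 and 33.95, and Prdm14 at 10.1 and 21.8. Zfp42 was at 1109 and 789 CPM. Of the 10 members 0 were at less than 50% of replicate 1 in replicate 2 (5.83% of the 6622 genes that reached 20 UMIs in 1 of the libraries), and 1, Prdm14, was more than 2-fold higher (6.36% of those genes). The time course below is given against both libraries because its other times have 1 library each and no test.

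Klf2, Klf4 and Klf5 encode Krüppel-like zinc finger factors that share targets in mESCs. Klf2 was at 118 CPM [104-134] after 6 h, 69.6 after 12 h and 18.4 after 24 h, and its lowest level was 5.45 at 72 h. Klf4 was at 64.7 and 74.9 CPM in the mESC libraries, at 37.2 [29.3-46.5] after 6 h, 23.3 after 12 h and 4.80 [2.07-9.47] at 60 h. Klf4 then stood higher again in each later library, at 10.9 CPM after 72 h, 17.6 at 84 h and 29.2 [22.1-37.8] at 96 h. The 96 h level was 6.08-fold that of 60 h (exact conditional 95% interval 2.89-14.8). Klf5 was at 16.1 CPM after 6 h, 17.9 at 24 h and 15.0 at 48 h, inside the interval of the first mESC library [12.1-23.3] and below that of the second [26.8-42.4]. It was lowest at 60 h with 9.61 CPM [5.49-15.6] and at 27.2 [20.4-35.5] at 96 h, a ratio of 2.83 (1.59-5.30). Nr0b1 was also higher at 96 h than at 60 h, at 17.9 against 8.41 CPM (ratio 2.13, 1.12-4.29), and so was Tbx3, at 31.8 against 20.4 (1.56, 1.01-2.44). The interval for Klf2 held 1, at 10.3 against 7.21 CPM (ratio 1.42, 0.662-3.19). The time of 60 h was taken after the values were seen, as the lowest of Klf4 and Klf5. Over the same libraries the summed level of 11 XEN markers was 1338.5 CPM at 60 h and 12297 at 96 h, and Pdgfra, a surface marker of XEN-like cells, was at 11.4 and 95.8 CPM. In SCRB-seq 48 of 273 cells had more XEN than ectoderm marker UMIs at 60 h and 116 of 137 at 96 h. XEN markers summed to more CPM in their own sort than ectoderm markers did in theirs, so this cut gives no share of XEN-like cells. The paper's antibody staining gave a smaller XEN-like share at 96 h. Nr0b1 was lower in each sorted library of 96 h than in the unsorted one. It was at 2.03 and 3.65 CPM in XEN-like and 2.22 and 0 in ectoderm-like cells. The part of XEN-like cells in the later levels was not tested. In bulk RNA, fewer expressing cells and less RNA per cell cannot be told apart.

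Esrrb, Nr5a2 and Nr0b1 are orphan nuclear receptors. Esrrb, which binds many enhancers active in mESCs, was at 66.1 and 80.1 CPM in mESCs, 59.2 at 6 h, 32.6 at 12 h, 17.9 at 24 h and 4.84 at 36 h, with a lowest level of 1.09 at 72 h. Nr5a2, a receptor that can bind the Pou5f1 promoter, was scarce, at 9.19 and 7.83 CPM in mESCs (21 and 18 UMIs). Its level was 16.6 CPM [11.5-23.2] after 6 h, 5.29 after 12 h and 1.99 after 24 h, and no UMI was found from 60 h on, where the upper bounds were 1.89 to 2.22 CPM. Nr0b1 encodes a receptor without the usual DNA-binding domain that acts as a partner of other receptors and of Pou5f1. It was at 260 [240-282] and 232 [212-252] CPM in mESCs, at 503 [473-535] at 6 h and 379 [354-405] at 12 h. The ratio to the first mESC library was 1.93 (1.75-2.14) at 6 h and 1.46 (1.31-1.62) at 12 h. Both early libraries lay above both mESC libraries, the reverse of what Klf2, Klf4 and Tfcp2l1 showed at the same times. Nr0b1 was then at 120 CPM after 24 h, 30.9 at 36 h and 8.54 at 48 h.

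Tfcp2l1, a grainyhead-like factor downstream of LIF and Stat3, was at 102 CPM after 6 h, 46.7 at 12 h and 20.9 at 24 h and between 4.36 and 6.74 from 36 h on. Prdm14, which restrains Fgf receptor signalling and DNA methylation in mESCs, was at 9.78 CPM after 6 h, 4.41 at 12 h and 1.49 (3 UMIs) at 24 h. Zfp42 (Rex1), a zinc finger factor widely used as a naive marker, was at 949 CPM [907-992] at 6 h and 895 [857-935] at 12 h, both between the mESC libraries. It was at 494 CPM after 24 h, 180 at 36 h and 117 at 48 h, and stayed between 62.1 and 85.6 from 60 h to 96 h. Tbx3, a T-box factor downstream of LIF that is also known from the endoderm lineage, was at 109 and 131 CPM in mESCs, 131 at 6 h, 82.8 at 12 h, 53.3 at 24 h and 20.4 at 60 h. It kept the highest share of its first mESC level at 96 h after Klf5 and Klf4, 29.1% (31.8 CPM).

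The members fall into groups by the first sampled time at which they were under 50% of the first mESC library. Klf2, Klf4, Tfcp2l1, Prdm14 and Esrrb were under it at 12 h, 5 of 10 members against 4.07% of 6577 genes. Nr5a2, Zfp42, Nr0b1 and Tbx3 followed at 24 h, which made 9 of 10 members against 6.23% of 6633 genes. Klf5 was never under it. At 48 h the count was again 9 of 10, against 7.66% of 7550 genes. The median log2 ratio of the members was -0.12 at 6 h, -0.91 at 12 h, -1.69 at 24 h and -3.37 at 48 h, beside medians over the genes of 0.02, 0.06, 0.10 and 0.25. Straight-line interpolation between samples placed the 50% crossing at 6.62 h for Klf2, 7.78 h for Klf4, 9.03 h for Tfcp2l1, 11 h for Prdm14, 11.9 h for Esrrb, 13.7 h for Nr5a2, 21.7 h for Zfp42, 23.1 h for Nr0b1 and 23.3 h for Tbx3.

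Against the second mESC library the crossings were at 3.14 h for Klf2, 4.87 h for Tfcp2l1, 5.20 h for Prdm14, 5.59 h for Klf5, 5.94 h for Klf4, 9.93 h for Esrrb, 15.7 h for Nr5a2, 18.3 h for Tbx3, 24.3 h for Nr0b1 and 26.7 h for Zfp42. The early set and the late set were the same under both references except for Klf5, but both references share the later libraries. Against the first library the 12 h ratio was 0.494 (0.369-0.656) for Esrrb, 0.438 (0.186-0.956) for Prdm14 and 0.575 (0.258-1.22) for Nr5a2. Each of these intervals held 50%, so the counts do not settle the set of these members. The order inside each set moved with the reference and is not resolved by sampling every 6 to 12 h. Zfp42, Nr0b1 and Klf5 were not under 50% of the second library at 24 h, so the count there was 7 of 10, against 9.02% of 6766 genes. Against the first library, scaling by Actb in place of the library total also gave 7 of 10, against 5.01% of 6633 genes, and the 3 members not under 50% were then Klf5, Nr0b1 and Tbx3. Scaling by Gapdh or by size factors over the bulk libraries gave 9 of 10, against 7.28% and 8.07% of these genes.

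**Figure D1:**
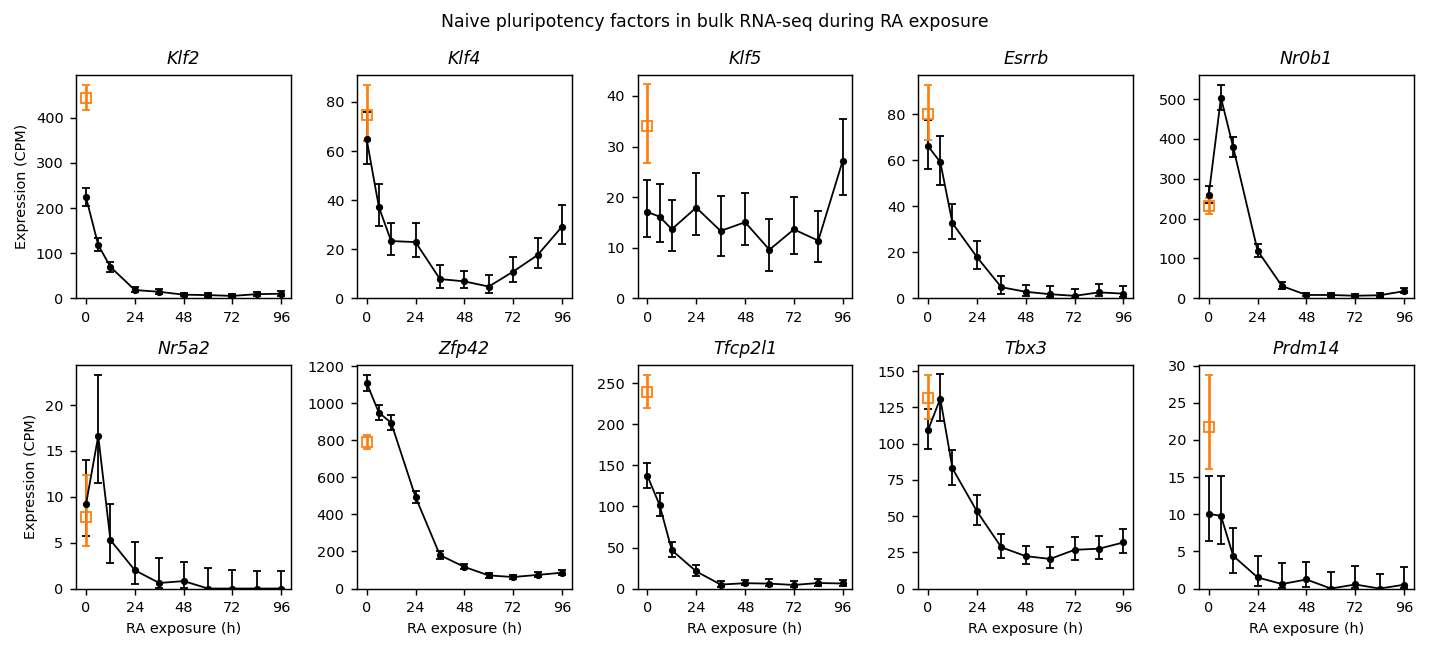
Level of each factor in bulk RNA-seq (CPM, linear axis starting at 0, scaled per gene) against hours of RA exposure; black points joined by a line are the first mESC library and the single library of each time, the open orange square is the second mESC library, and bars are exact Poisson 95% intervals for counting error. Nr0b1 stands at 503 CPM after 6 h, above both mESC libraries, and Klf4 and Klf5 stand higher at 96 h (29.2 and 27.2 CPM) than at 60 h (4.80 and 9.61 CPM).

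Across the 10 times the log2(CPM + 1) profile of a member had a Pearson r with the mean of the other members of 0.305 for Klf5 and 0.782 for Klf4, and of 0.946 to 0.986 for the other 8. The points share the single library of each time, so these values are descriptions. Outside the members, the closest profiles among 3737 genes were those of Gpx1 (r = 0.986), Oas1g (0.985), Adh5 (0.985), Khdc3 (0.984) and Eif2s2 (0.984), against the mean of the 7 members with at least 50 UMIs in the first mESC library. Closeness in shape did not mean a like size of difference. Gpx1 was at 703 CPM in the first mESC library and 346 at 96 h, and Adh5 at 344 and 259, whereas Oas1g was at 69.1 and 2.56. Khdc3, at 55.6 CPM in the first mESC library, was at 5.66 in the second.

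The 2 mESC, 2 sorted ectoderm-like and 2 sorted XEN-like libraries were compared with edgeR's quasi-likelihood test over 8945 genes, with Benjamini-Hochberg adjusted p-values over these genes. The study's methods call the libraries of these groups biological replicates. The p-values measure the spread between them, and an exact permutation test of 2 against 2 libraries cannot go below 0.333. Each member passed the filter on low counts. Esrrb, Nr0b1, Nr5a2 and Prdm14 passed it through the mESC libraries alone, so that a difference from mESCs was built into their being tested. Against mESCs, 878 genes were higher and 829 lower in ectoderm-like cells and 1103 higher and 939 lower in XEN-like cells. With libraries scaled by their totals alone these splits were 1372 to 586 and 1336 to 702, and the median log2 fold change over the genes was 0.36 and 0.15 in place of 0.05 and -0.06.

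In sorted ectoderm-like cells each of the 10 members was lower than in mESCs (9.27% of the tested genes were lower and 9.82% higher). This count and the medians below include Esrrb, Nr0b1, Nr5a2 and Prdm14, whose being tested rested on the mESC libraries alone. Klf2, Klf4, Klf5, Tfcp2l1, Tbx3 and Zfp42 did not depend on those libraries to be tested. The median fitted log2 difference was -6.32, or -5.22 with Nr5a2 and Prdm14 set to the bound that a count of 0 allows, beside 0.05 over the tested genes. Zfp42 was at 20.6 and 13.6 CPM there (17.1 ± 4.95, SD, n = 2), far under the 949 ± 226 of mESCs. Its log2 fold change was -6.10 with an SE of 0.37 (edgeR adjusted p = 7.3e-06). Klf2 was at 3.89 and 5.17 CPM, a log2 fold change of -6.52 (SE 0.51, edgeR adjusted p = 1.72e-05). The smallest fitted difference was that of Klf5, at 1.11 and 6.46 CPM with a log2 fold change of -3.10 (SE 0.72, edgeR adjusted p = 0.0106). Over the alternative fits the log2 fold change of Klf5 ran from -4.80 to -2.20. Its call was lost without ectoderm-like replicate 1, and DESeq2 did not call Prdm14. Tbx3 remained at 14.5 and 11.6 CPM, a log2 fold change of -3.52 (SE 0.45, edgeR adjusted p = 0.000346). No UMI of Nr5a2 or Prdm14 was found in the ectoderm-like pair, which puts them at least 9.49-fold and 17.8-fold lower, with 3 counts over the group as the floor.

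In sorted XEN-like cells 9 of the 10 members were lower than in mESCs (10.5% of the tested genes were lower and 12.3% higher). The median fitted log2 difference was -4.60, or -4.05 with Nr5a2 and Prdm14 at their bound, beside -0.06 over the tested genes. Here too the count and medians include Esrrb, Nr0b1, Nr5a2 and Prdm14, tested through the mESC libraries alone. Esrrb, at 1.02 and 0.912 CPM, and Nr0b1, at 2.03 and 3.65 CPM, were low as in ectoderm-like cells, where Esrrb was at 0 and 0.646 and Nr0b1 at 2.22 and 0. Nr5a2 and Prdm14 again had no UMI and were at least 8.70-fold and 16.3-fold lower than in mESCs. Klf4, at 42.7 and 26.4 CPM, was lower by a log2 fold change of -1.22 (SE 0.33, edgeR adjusted p = 0.0200). Tbx3, at 84.8 and 27.4 CPM, had a log2 fold change of -1.32 (SE 0.40, edgeR adjusted p = 0.0333). Klf5, at 34.5 and 10.0 CPM, overlapped the mESC libraries and did not pass the test (log2 fold change -0.38, SE 0.57, edgeR adjusted p = 0.667). The call for Klf4 was lost without mESC replicate 2 or either XEN-like library. That for Tbx3 was lost without mESC replicate 2, XEN-like replicate 2 or either ectoderm-like library, and that for Nr5a2 without XEN-like replicate 1. Klf4 and Tbx3 were also not called when libraries were scaled by their totals alone.

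**Figure D2:**
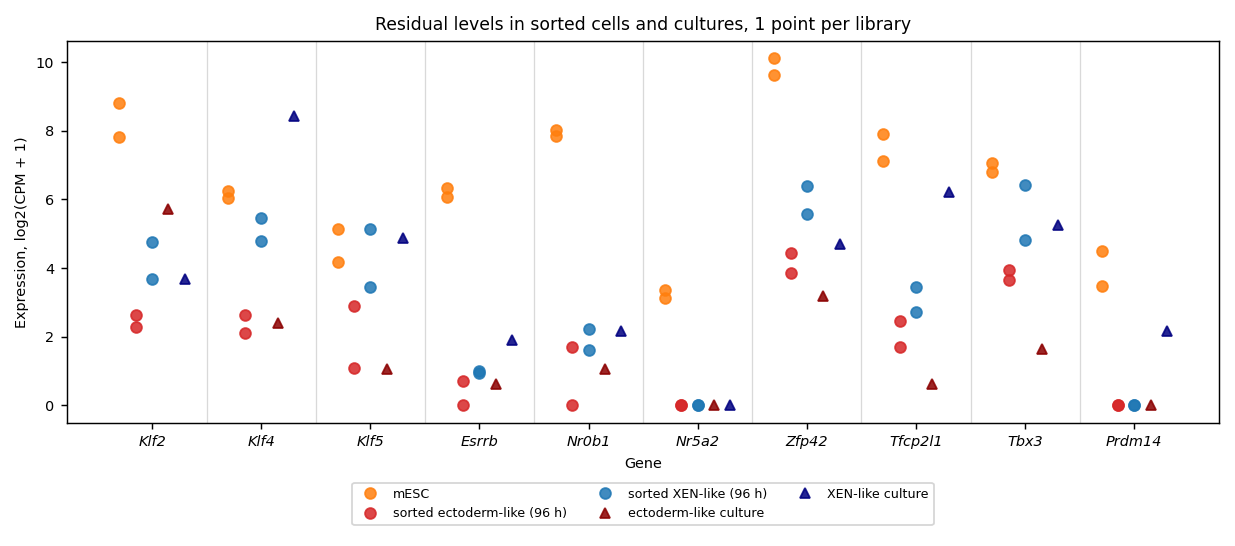
Level of each factor, log2(CPM + 1), in the mESC libraries (orange), the sorted ectoderm-like (red) and XEN-like (blue) libraries at 96 h and the 2 long-term cultures (triangles), 1 point per library. Klf4, Klf5, Tbx3, Zfp42, Klf2, Tfcp2l1 and Esrrb lie higher in both XEN-like sorts than in both ectoderm-like sorts. Of these, Tfcp2l1 and Esrrb did not pass the test, and the share of all genes placed so was not counted. Klf4 in the XEN-like culture (342 CPM) lies above both mESC libraries.

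Between the sorted populations, 5 of the 10 members were higher in XEN-like than in ectoderm-like cells and 0 were lower (6.98% of the tested genes were higher and 5.71% lower). These 5 were Klf4, Klf5, Tbx3, Klf2 and Zfp42. Their XEN-like and ectoderm-like libraries did not overlap, nor did those of Tfcp2l1 and Esrrb, which were not called. The share of all genes without such overlap was not counted. With 2 libraries against 2 an exact permutation test cannot go below 0.333, so separation alone does not show a difference. Esrrb separated on 2 and 1 UMIs in the XEN-like against 0 and 1 in the ectoderm-like libraries. Klf4 was at 34.5 ± 11.5 CPM in XEN-like cells and 4.25 ± 1.30 in ectoderm-like ones (SD, n = 2), a log2 fold change of 3.12 (SE 0.42, edgeR adjusted p = 0.00141). Klf5 was at 22.3 ± 17.3 against 3.79 ± 3.78 CPM (log2 fold change 2.72, SE 0.73, edgeR adjusted p = 0.0324). Tbx3 was at 56.1 ± 40.6 against 13.04 ± 1.99 CPM (log2 fold change 2.20, SE 0.45, edgeR adjusted p = 0.00943). Klf2, at 25.9 and 11.8 CPM in the XEN-like pair, had a log2 fold change of 2.19 (SE 0.54, edgeR adjusted p = 0.0219), and Zfp42, at 82.8 and 46.5 CPM, one of 2.02 (SE 0.34, edgeR adjusted p = 0.00343).

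Esrrb, Nr0b1, Nr5a2, Prdm14 and Tfcp2l1 did not pass the test. Of these, Esrrb, Nr0b1, Nr5a2 and Prdm14 had 4 UMIs or fewer in each sorted library, so that a difference between the sorts was not detectable at this depth. Tfcp2l1 was at 5.59 and 10.0 CPM in XEN-like cells and at 2.22 and 4.52 in ectoderm-like ones (log2 fold change 1.25, SE 0.63, edgeR adjusted p = 0.235). The calls for Klf4 and Zfp42 held in each fit that left out 1 library. Those for Klf2 and Tbx3 were lost without XEN-like replicate 1 or either ectoderm-like library, and that for Klf5 without XEN-like replicate 1 or ectoderm-like replicate 1, so that 2 to 5 members were called.

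The sorts were not equally clean by their markers. The summed level of 11 XEN markers, each above 0 in the sorted libraries, was 12050 and 6665 CPM in the XEN-like and 485 and 1779 in the ectoderm-like libraries, and that of 11 ectoderm markers was 611 and 323 against 3270 and 2803. Pdgfra itself was at 3.33 and 36.8 CPM in the ectoderm-like and 144 and 143 in the XEN-like libraries. XEN-like replicate 1 had the higher level of Klf2, Klf4, Klf5, Tbx3 and Zfp42 as well as the higher sum of XEN markers, and ectoderm-like replicate 2 had the higher sum of XEN markers with more Klf2, Klf4 and Klf5 but less Zfp42 and Tbx3 than replicate 1. The part of this in the members' levels was not tested.

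The long-term cultures had 1 library each and no test. The XEN-like culture held Klf4 at 342 CPM [313-374], 8.02-fold (6.35-10.2) and 12.9-fold (8.90-19.5) the sorted XEN-like libraries and 5.28-fold (4.39-6.39) the first mESC library. Tfcp2l1 was at 73.1 CPM [59.9-88.4] in that culture, 13.1-fold (7.03-27.01) and 7.29-fold (3.92-15.1) the sorted libraries. Klf5, at 28.3 CPM, and Tbx3, at 37.3, lay between the sorted XEN-like libraries, whereas Zfp42, at 24.8, lay below both. Prdm14 was found with 5 UMIs (3.45 CPM [1.12-8.05]), while both sorted XEN-like libraries had 0. The ectoderm-like culture held Klf2 at 51.4 CPM [41.6-62.8], 13.2-fold (6.17-33.7) and 9.94-fold (4.85-23.7) the sorted ectoderm-like libraries, and each of the other 9 members was at 8.03 CPM or less.

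Cd24a was at 421 CPM and Pdgfra at 34.5 in the XEN-like culture, whereas Cd24a was at 9.14 and 14.6 in the sorted XEN-like cells, and the sum of XEN markers was 10098 CPM. The ectoderm-like culture had 18.7 CPM of Cd24a and an XEN marker sum of 2235. The part of other cells in the cultures in the members' levels was not tested. Genes at 500 CPM or more in the XEN-like culture and at least 100-fold above each other library, 20 in number, were found elsewhere at a median of 0.0540% of their level in the culture, and at 0.111% in the library with the highest median.

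Within PDGFRA- cells several members were lower where CD24, the surface marker of the ectoderm-like fate, was higher. At 48 h Cd24a itself was at 19.4 CPM in the lowest and 127 in the highest quartile, as the sort was made on it. Zfp42 was at 148, 134, 102 and 56.8 CPM from the lowest to the highest CD24 quartile, a ratio of highest over lowest of 0.384 (0.298-0.493). Nr0b1 was at 20.7, 12.1, 18.8 and 3.16 CPM (ratio 0.152, 0.0462-0.395), Tbx3 at 20.1, 12.1, 12.2 and 9.47 (0.472, 0.236-0.905) and Klf2 at 23.4, 31.4, 22.6 and 10.1 (0.432, 0.223-0.801). For Klf5 (ratio 0.547, 0.235-1.21), Tfcp2l1 (0.944, 0.309-2.89) and Klf4 (1.18, 0.254-5.95) the intervals held 1, and with 4 UMIs of Klf4 in the lowest and 5 in the highest quartile a gradient of the size seen for Zfp42 was not detectable. The sum over the members was 235, 225, 175 and 96.6 CPM.

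At 72 h Zfp42, Klf2, Klf5, Tfcp2l1 and Tbx3 were lower in the tercile highest in CD24. Zfp42 was at 128, 36.2 and 23.03 CPM over the terciles (ratio of the highest to the lowest 0.180, 0.117-0.266), Klf2 at 20.98, 4.41 and 2.30 (0.110, 0.0213-0.357), Klf5 at 12.4, 3.53 and 2.30 (0.185, 0.0346-0.647), Tfcp2l1 at 11.7, 7.94 and 0.768 (0.0659, 0.00156-0.428) and Tbx3 at 24.9, 21.2 and 9.98 (0.401, 0.193-0.786). The sum over the members was 218, 82.9 and 43.7 CPM. The PDGFRA+/CD24- cells of 72 h had a different mix from the tercile lowest in CD24. Klf4 was at 17.6 against 6.22 CPM (ratio 2.84, 1.23-7.31) and Klf5 at 24.3 against 12.4 (1.95, 1.04-3.80), whereas Zfp42 was at 60.3 against 128 (0.470, 0.356-0.616) and Tfcp2l1 at 3.67 against 11.7 (0.315, 0.0897-0.913). XEN markers summed to 797, 473 and 356 CPM in the terciles and to 4381 in the PDGFRA+/CD24- cells. Each of these libraries is 1 sample, and no test was made.

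In SMART-seq2 cells, whose RPKM values were rescaled to a common total per cell and can be set side by side between genes because they are per length, Zfp42 had the highest median at 0 h. It was at 585 normalized RPKM, followed by Tfcp2l1 (105), Nr0b1 (90.5), Klf4 (43.7), Klf5 (41.7), Tbx3 (37.6), Esrrb (33.9), Klf2 (30.8), Prdm14 (14.7) and Nr5a2 (0.790). The ranges over the 82 cells of each neighbouring pair in this order overlapped. A gene was called detected above 1 normalized RPKM. By this measure Zfp42, Esrrb, Klf4, Tfcp2l1 and Tbx3 were found in 82 of 82 cells (exact binomial interval 95.6-100%), Klf5 in 96.3%, Klf2 in 93.9%, Nr0b1 in 90.2%, Prdm14 in 62.2% and Nr5a2 in 47.6%.

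The shares at later times followed the early and late sets of bulk RNA only in part. Nr5a2, whose set the bulk counts did not settle, was detected in 27.9% of cells at 12 h and 11.2% at 24 h, from 47.6% at 0 h. Klf4, early in bulk, was in 88.4% and 78.7% at 12 and 24 h, beside the late Tbx3 at 95.3% and 89.9%. Klf2 was detected in 56.98% of 86 cells at 12 h (45.8-67.6%) and in 39.3% of 89 cells at 24 h (29.1-50.3%), and Prdm14 in 30.2% and 21.3%. Zfp42 was still detected in each cell at 12 and 24 h and in 67.1% of 82 cells at 48 h (55.8-77.1%), where its median was 36.1 normalized RPKM. Nr0b1 was detected in 96.5% of cells at 12 h (90.1-99.3%) with a median of 237 normalized RPKM, above the 90.5 of 0 h, and in 85.4% at 24 h. At 48 h it was left in 6.10% of cells (2.01-13.7%). Esrrb passed from 79.8% at 24 h to 10.98% at 48 h. Klf5 was the member found in the largest share of cells at 48 h, 68.3% (57.1-78.1%), with Zfp42 within its interval. Tfcp2l1 was detected in each cell at 0 and 12 h, in 93.3% at 24 h (85.9-97.5%) and in 42.7% at 48 h (31.8-54.1%), with medians of 105, 40.4, 26.1 and 0.420 normalized RPKM. Each time is 1 set of cells, and cells are not replicates.

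**Figure D3:**
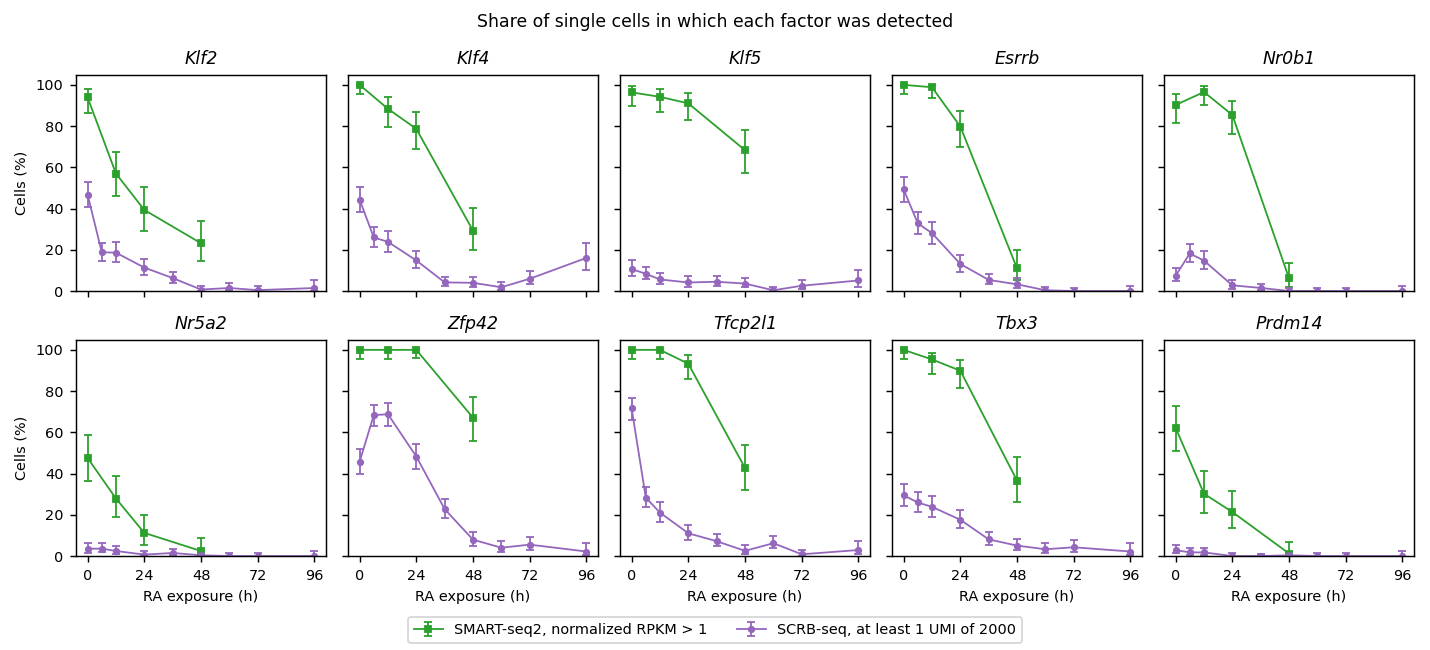
Share of single cells (%) in which each factor was detected against hours of RA exposure, for SMART-seq2 (green squares, normalized RPKM above 1) and SCRB-seq (purple circles, at least 1 UMI after each cell was thinned to 2000 UMIs); bars are exact binomial 95% intervals. Zfp42 is detected in each SMART-seq2 cell to 24 h, and Klf4 in SCRB-seq is at 1.83% of cells at 60 h and 16.1% at 96 h.

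SCRB-seq gave 2448 wells with more than 2000 UMIs out of 3456, between 137 (96 h) and 335 (6 h) per plate, with median depths of 3559 to 5069 UMIs per cell, and the same 384 well names serve each plate. Each cell was thinned to 2000 UMIs before shares were compared. The share of UMIs from free RNA was not measured. At 0 h Tfcp2l1 was found in 71.6% of cells (65.98-76.8%), Esrrb in 49.3%, Klf2 in 46.8%, Zfp42 in 45.7%, Klf4 in 44.3% and Tbx3 in 29.4%, whereas Klf5 (10.6%), Nr0b1 (7.45%), Nr5a2 (3.55%) and Prdm14 (2.84%) were seen in few. Without thinning a cell held 4.68 rather than 3.12 members on average, so the shares depend on depth.

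At 6 h Tfcp2l1 was found in 28.4% of 335 cells (23.6-33.5%), Klf2 in 18.8% (14.8-23.4%), Klf4 in 25.97% and Esrrb in 32.8%. Nr0b1 was found in 18.2% of cells at 6 h (14.2-22.8%) and 14.7% at 12 h (10.8-19.4%), above the interval of 0 h (4.67-11.2%), and in 0 of 277 cells at 48 h, which allows up to 1.08% of cells with a UMI at this depth and sets no limit on cells expressing the gene, since bulk RNA of 48 h held 21 UMIs of Nr0b1. Without thinning its shares were 18.1%, 37.3%, 31.6% and 0% at 0, 6, 12 and 48 h. Zfp42 was found in 68.4% of cells at 6 h (63.1-73.3%) and 68.8% at 12 h, above the 45.7% of 0 h (39.8-51.8%), and without thinning in 69.9%, 89.9% and 87.4% of cells at 0, 6 and 12 h. Its pooled level after thinning was 358, 604 and 661 CPM at 0, 6 and 12 h, an order not seen in bulk, where both early libraries lay between the mESC libraries, nor in the SMART-seq2 medians of 585 and 574 normalized RPKM at 0 and 12 h. Gapdh, at 1557, 2033 and 2130 CPM on the same plates, was also lowest on the 0 h plate. The part of the 0 h plate in this order was not tested.

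By 60 h the shares were 6.23% for Tfcp2l1, 4.03% for Zfp42, 3.30% for Tbx3, 1.83% for Klf4 and 1.47% or less for the others. Klf4 was then at 5.96% of 235 cells at 72 h (3.29-9.79%) and 16.1% of 137 cells at 96 h (10.3-23.3%), and Klf5 at 2.55% and 5.11%, from 0.366% at 60 h. Without thinning the 96 h shares were 27.7% for Klf4 and 14.6% for Klf5. At 96 h the 22 cells with a Klf4 UMI were among the 116 cells with more XEN than ectoderm marker UMIs (18.97%, 12.3-27.3%), and none was among the 17 cells with more ectoderm marker UMIs, where 0 of 17 allows up to 17.6% of cells with a UMI. The 7 cells with a Klf5 UMI were likewise among the 116. The split is a cut through a range, with 21 of 137 cells within 2 UMIs of it and 4 cells equal. It compares raw UMI sums of markers of unlike abundance, so its XEN side is not a count of XEN-like cells. The small ectoderm-side set cannot show that the share differs. At 72 h Klf4 was found in 7 of 37 cells on the XEN side (18.9%, 7.96-35.2%) and 7 of 184 on the ectoderm side (3.80%, 1.54-7.68%).

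Members were counted per cell. A SMART-seq2 cell held 8.90 of the 10 members on average at 0 h (range 7 to 10), 7.88 at 12 h (3 to 10), 6.90 at 24 h (4 to 9) and 2.88 at 48 h (0 to 7). The complete set was found in 21 of 82 cells at 0 h, 8 of 86 at 12 h and 0 at 24 and 48 h. At 48 h 4 of 82 cells had none. Of the 45 pairs of members, 28 were found together in over 80% of cells at 0 h, 21 at 12 h, 7 at 24 h and 0 at 48 h. Counts of pairs and of the complete set depend on the share of cells with each member. The numbers that those shares alone would give were not worked out. Whether members were lost together in a cell is therefore not shown. Cells with part of the set made up the sample at 24 h. The step from 24 to 48 h was the largest between sampled SMART-seq2 times, but it spans 24 h where the others span 12 h. In SCRB-seq the mean was 3.12 at 0 h, 1.24 at 24 h and 0.278 at 48 h, so there the larger part of the difference lay before 24 h.

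**Figure D4:**
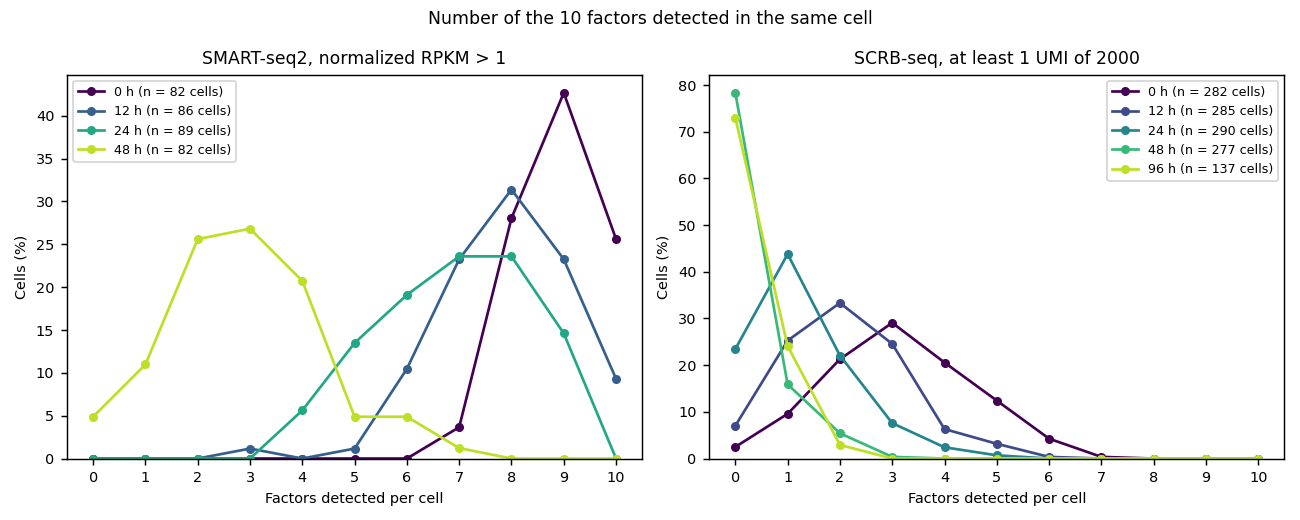
Share of cells (%) against the number of the 10 factors detected in the same cell, for SMART-seq2 at 4 times (left) and for SCRB-seq cells thinned to 2000 UMIs at 5 times (right), 1 line per time. In SMART-seq2 the mean is 8.90 at 0 h and 2.88 at 48 h, and in SCRB-seq it is 3.12 at 0 h and 0.278 at 48 h.

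Levels of different members were weakly related across SMART-seq2 cells. The Pearson r of log2 values over pairs ran from -0.195 to 0.242 at 0 h, from -0.317 to 0.526 at 12 h, from -0.106 to 0.570 at 24 h and from -0.216 to 0.402 at 48 h, with medians of 0.07, 0.11, 0.14 and 0.05. The cells of a time share 1 preparation and an unknown read depth, so these are descriptions. The highest value at 24 h was that of Zfp42 with Esrrb, at 12 h that of Nr0b1 with Tbx3 and at 48 h that of Zfp42 with Klf5. In SCRB-seq, at 2000 UMIs, a cell held 3.12 members at 0 h (SD over cells 1.40), 2.32 at 6 h, 2.09 at 12 h, 1.24 at 24 h, 0.614 at 36 h, 0.278 at 48 h, 0.176 at 60 h and 0.299 at 96 h. The share of cells with none was 2.48% at 0 h, 23.4% at 24 h, 84.2% at 60 h (79.4-88.4%) and 72.99% at 96 h (64.7-80.2%).

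The 48 h SMART-seq2 cells were also looked at by their gate genes, a choice made after values were seen and given with no test. The 10 cells highest in Pdgfra held 3.9 members on average and the 10 highest in Cd24a held 1.9, with 1 cell in both sets. Zfp42 was detected in 9 of the Pdgfra set and 3 of the Cd24a set, Klf5 in 9 and 2, Esrrb in 3 and 0 and Tbx3 in 6 and 4. Klf4 was detected in 2 of either set and Tfcp2l1 in 5 of either.

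Other genes of the pathway were read from fixed lists. Of 7 further naive genes, 5 were lower in ectoderm-like cells than in mESCs (Dppa3, Dppa5a, Fbxo15, Tcl1 and Tdh) and 6 in XEN-like cells (Dppa3, Dppa5a, Gbx2, Nanog, Tcl1 and Tdh), and 0 were higher in either. Against mESCs, 9.27% of the tested genes were lower and 9.82% higher in the ectoderm-like sort, and 10.5% and 12.3% in the XEN-like sort. Between the sorts 4 of the 7 were higher in XEN-like cells (Dppa5a, Fbxo15, Tcl1 and Tdh) and 0 lower (6.98% and 5.71% of the tested genes). Their median log2 fold change was -5.46, -4.12 and 1.97 in the ectoderm-like against mESC, XEN-like against mESC and XEN-like against ectoderm-like comparisons, beside 0.05, -0.06 and -0.06 over the tested genes. Dppa5a, an RNA-binding protein of mESCs, had a log2 fold change of 3.86 (SE 0.34, edgeR adjusted p = 0.000265). Tdh, the threonine dehydrogenase of mESC metabolism, had one of 1.97 (SE 0.39, edgeR adjusted p = 0.00836).

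Of 9 core pluripotency genes, the ectoderm-like sort had 6 lower and 1 higher (Lin28a) relative to mESCs, and the XEN-like sort 7 lower and 1 higher (Lin28a), where 9.27% and 10.5% of the tested genes were lower and 9.82% and 12.3% higher. Between the sorts Pou5f1 was higher in XEN-like cells, at 60.4 and 16.4 against 3.34 and 0.646 CPM, and Sox2 was lower. Of 10 tested genes of the LIF, Wnt and Erk pathways, Lifr, the LIF receptor, and Stat3 were higher in XEN-like than in ectoderm-like cells and Dusp6, an Erk phosphatase, was lower, beside 6.98% of the tested genes higher and 5.71% lower. Lifr had a log2 fold change of 3.18 (SE 0.35, edgeR adjusted p = 0.000696). Against mESCs, Socs3, Stat3, Etv5 and Spry2 were lower and Dusp6 higher in ectoderm-like cells (9.27% and 9.82% of the tested genes). Etv5, Spry2 and Axin2 were lower and Lifr higher in XEN-like cells than in mESCs (10.5% and 12.3%). Of 9 post-implantation epiblast genes 3 had counts enough to be tested, and of these the DNA methyltransferase gene Dnmt3a passed the test upwards in the ectoderm-like sort against mESCs, and Zic2 was lower in XEN-like cells than in either other group.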

How the data were processed

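Bulk RNA-seq (25 libraries) and SCRB-seq (9 plates) were deposited by the authors as counts of UMIs per gene, not normalized: reads were aligned with BWA 0.7.4 (per the submitters' processing notes) to RefSeq mRNAs and each UMI was counted once per gene and well. SMART-seq2 values were deposited by the authors as RPKM made with TopHat and Cuffnorm, for cells over a read minimum, so that read depth is unknown; the genome named was mm10. The 10 members and the gene lists were chosen with earlier results of these data known. Named genes are the 10 members, genes of the fixed lists, and the 5 genes with at least 50 UMIs in the first mESC library whose bulk profile correlates best with the members' mean.

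Computed here: CPM from bulk library totals (1063809 to 2459424 UMIs), with 2 genes holding damaged text values left out; exact Poisson, binomial and conditional intervals at 95%; and, on the 6 libraries of replicated groups, edgeR 4.0.16 (R 4.3.3) with TMM scaling, filterByExpr, the quasi-likelihood test and a threshold of adjusted p = 0.05 over 8945 genes, tested on simulated data. The study's methods call the libraries of these groups biological replicates. A log2 ratio of single libraries needed 20 UMIs in the larger one. SCRB-seq wells over 2000 UMIs were thinned to 2000 with a fixed seed (Python 3.11.15, numpy 2.4.6); cells had been sorted singly into wells, no doublet caller was run and the deepest well held 132248 UMIs. SMART-seq2 cells were rescaled to the median total of 0 h cells. Alternatives were DESeq2 1.42.0, other scalings, no filter, each library left out, a replicate block, other thresholds and no thinning.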

Additional observations from a re-analysis of the deposited data

How the results depend on the processing

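Of the alternatives to the summary values, 48 stayed within 1.5 times the main count or within the counting interval and 6 did not. Leaving out 1 library gave 2 to 5 members higher in XEN-like than in ectoderm-like cells: 2 without XEN-like replicate 1, 2 without ectoderm-like replicate 1 (Klf4 and Zfp42 in both) and 3 without ectoderm-like replicate 2. Where a group kept 1 library, that library was assumed to vary like the other groups. With any value above 0 counted, a SMART-seq2 cell at 48 h held 3.23 members in place of 2.88. Without thinning, a SCRB-seq cell held 4.68 members at 0 h and 0.613 at 96 h in place of 3.12 and 0.299. These 3 values moved with the detection limit that the alternatives set. The log2 fold change of Klf5 between XEN-like cells and mESCs, -0.38, ran from -1.41 (without XEN-like replicate 1) to 0.23 over the fits that left out 1 library; it turned to 0.23 without mESC replicate 2 and to 0.11 without XEN-like replicate 2, and none of these passed the test; the cause was not tested. Of the single-gene values 304 kept their direction and call and 24 lost the call. DESeq2 called 9, 7 and 5 members in the ectoderm-like against mESC, XEN-like against mESC and XEN-like against ectoderm-like comparisons. Over all genes it called 1111, 1431 and 717 in place of 1707, 2042 and 1135. Without XEN-like replicate 1 or 2, ectoderm-like replicate 1 or 2, the third comparison had 465, 548, 262 and 657 calls. No low-count filter gave 2545, 2709 and 1667.

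With the replicate number as a block in the comparison of the sorted groups, the same 5 members were called out of 5 tested, and 2610 genes against 1259 without the block on the same libraries. The low-count filter on these libraries had left out Esrrb, Nr0b1, Nr5a2, Prdm14 and Tfcp2l1. In the main fit Klf2 and Klf4 had 0 ectoderm-like libraries above the filter's cut and Klf5 had 1, against 2 XEN-like ones each. The filter thus favoured members high in XEN-like cells, and 5 of 5 adds no support. The deviations of same-numbered libraries had a correlation of 0.329 over 9054 genes, but with 2 pairs and a number alone in the labels the pairing is not established. Depth limits the scarce members: with 18 to 23 UMIs of Nr5a2 and Prdm14 in some mESC libraries and 3 UMIs or fewer from 36 h on, their late levels are upper bounds.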

Other observations

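Nanog, which shares the naive network with the members but is not one of them, had another course. Its bulk level was 163 and 155 CPM in mESCs, 382 at 24 h (2.34-fold the first mESC library, 2.06-2.65) and 81.5 at 96 h. In SCRB-seq it was found in 54.3% of cells at 0 h (48.2-60.2%), 76.2% at 24 h (70.9-80.99%) and 40.9% at 96 h (32.6-49.6%), whereas Pou5f1 was found in 33.3% of cells at 0 h and in 0 of 137 at 96 h, which allows up to 2.19% of cells with a UMI and sets no limit on cells expressing the gene, since sorted XEN-like cells held it at 60.4 and 16.4 CPM. In SMART-seq2 the median of Nanog was 274 normalized RPKM at 0 h, 87.99 at 24 h and 26.9 at 48 h, so the assays differ in the direction of Nanog between 0 and 24 h. The cause was not tested. Lifr, the LIF receptor, was at 22.3 and 27.4 CPM in mESCs and at 197 at 96 h, 8.84-fold the first (6.59-12.1). Dppa2 was at 137 and 59.6 CPM in mESCs and at 283 at 24 h, and Utf1 at 63 and 11.8 and at 108, both germ-line and stem-cell genes whose mESC libraries differed by more than counting error.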
